A study of Mus musculus with 9 samples.

Results

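The genes described here encode 2 families of RNA-binding splicing regulators, the heterogeneous nuclear ribonucleoproteins (hnRNPs) and the serine- and arginine-rich (SR) proteins, measured in cultured mouse bone marrow cells. They were chosen by name: every symbol that begins with Hnrnp, or with Srsf and a digit, was taken from the deposited count table, symbols of pseudogenes were dropped, and a gene was kept if it had at least 10 counts in at least 3 libraries. Among 24421 genes, 31 matched and 30 were kept, 20 hnRNP and 10 SR genes, and all 30 were among the 13270 genes that could be tested. The gene left out was Srsf12, with 0 to 1 counts per library. The members with the lowest counts were Hnrnph3, with 318 to 451, and Hnrnpa1, with 308 to 638. The rule itself uses no measured difference, but it was set with earlier results of these data known.

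Bulk RNA sequencing was carried out on 9 libraries in 3 groups of 3, all on the C57BL/6 background. Lineage-depleted bone marrow cells were grown for 5 days in IL-3, IL-6 and SCF, which yields immature myeloid cells that resemble blasts. The groups were wild-type (WT) cells with vehicle, cells that lack Tet2 and carry the Flt3 internal tandem duplication (Tet2-/-Flt3ITD, here "mutant") with vehicle, and mutant cells given SHP099, an allosteric inhibitor of the phosphatase SHP2, for 24 h. TET2 loss and FLT3 internal tandem duplication occur together in human acute myeloid leukaemia, and the study asked how SHP099 acts on such cells; the mutant cultures came from individual mice, and the labels do not name individual mice for the WT cultures. There was no WT group with SHP099, so a response to the compound could be seen in mutant cells only, and no dose is given in the sources used here.

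Both families bind nascent pre-mRNA and bias the choice of splice sites. SR proteins carry RNA recognition motifs and a tail rich in arginine and serine, bind mostly exonic enhancers and promote inclusion of the exons they bind, and their activity and location depend on phosphorylation by the SRPK and CLK kinases. Most hnRNPs lack that tail, coat introns and exons of the same transcripts and often oppose inclusion, besides acting in mRNA export, stability and translation. Many genes of both families limit their own amount through "poison" exons or introns that send part of their transcripts to nonsense-mediated decay. In human myeloid malignancy SRSF2 is one of the splicing genes that are recurrently mutated.

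Total counts per library were 27242168 to 40681117 in WT, 30982845 to 41567622 in mutant vehicle and 41053983 to 45810089 in SHP099 libraries. Tet2, the deleted gene, was at 33.2 ± 1.48 CPM (counts relative to the scaled library total, TMM; SD, n = 3) in WT and 15.5 ± 1.30 in mutant vehicle cells, a log2 fold change of -1.10 ± 0.09 (SE, adjusted p = 0.00013, edgeR quasi-likelihood test). Which part of the gene is deleted is not given in the sources used here. Ptpn11, which encodes SHP2, was at 295 ± 32.0 CPM with vehicle and 299 ± 18.9 with SHP099 in mutant cells (adjusted p = 0.87). In WT cells Ptpn11 was at 353 ± 22.4 CPM, above mutant vehicle cells (log2 fold change of mutant against WT -0.26 ± 0.08, adjusted p = 0.033, same test). Tet2 was at 12.4 ± 1.28 CPM with SHP099, lower than with vehicle (log2 fold change -0.32, adjusted p = 0.029, same test). The ribosomal RNA locus Rn45s took 4.33% of the counts of SHP099 replicate 3 and 0.276% to 0.734% of the other libraries. Summed levels of myeloid progenitor markers, all 10 of them in the table, were 12999 to 16429 CPM in WT, 14229 to 20890 in mutant vehicle and 15011 to 21332 in SHP099 libraries, while 6 lymphoid markers together reached at most 0.543 CPM and the globin genes Hba-a1 and Hbb-bs were listed at 0 in every library.

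Promoter windows from RefSeq (GRCm38.p6, 250 bases before to 50 after an annotated start) were found for 28 of the 30 genes, 18 hnRNP and 10 SR; Hnrnpll and Hnrnpul2 had none. Windows of 4 genes are printed as examples and do not stand for the other members. Hnrnpa3 and Hnrnpm were among the hnRNP genes higher in mutant cells, Srsf11 fell with SHP099, and Srsf5 was among the SR genes that lay higher with SHP099. They are read 5′ to 3′ on the gene's strand, with capitals for matches on either strand to the E-box CACGTG, the ETS-type motif CCGGAAGT or the TATA motif TATAAA. These are chr2:75659009-75659308 (plus strand) for Hnrnpa3, chr17:33685409-33685708 (minus) for Hnrnpm, chr12:80945249-80945548 (plus) for Srsf5 and chr3:158036557-158036856 (minus) for Srsf11.
Hnrnpa3: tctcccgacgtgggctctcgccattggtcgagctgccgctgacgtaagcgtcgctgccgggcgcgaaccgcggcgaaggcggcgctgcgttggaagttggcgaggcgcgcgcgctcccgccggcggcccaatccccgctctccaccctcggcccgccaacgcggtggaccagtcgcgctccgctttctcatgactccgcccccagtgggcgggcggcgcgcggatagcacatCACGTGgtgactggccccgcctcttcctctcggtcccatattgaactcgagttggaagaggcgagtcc
Hnrnpm: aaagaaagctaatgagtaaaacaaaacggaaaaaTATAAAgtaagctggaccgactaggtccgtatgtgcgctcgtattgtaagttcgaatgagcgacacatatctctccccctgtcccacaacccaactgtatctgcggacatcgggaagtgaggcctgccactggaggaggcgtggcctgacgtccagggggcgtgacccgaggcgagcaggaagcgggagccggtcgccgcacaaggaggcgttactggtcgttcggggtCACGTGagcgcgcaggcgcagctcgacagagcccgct
Srsf5: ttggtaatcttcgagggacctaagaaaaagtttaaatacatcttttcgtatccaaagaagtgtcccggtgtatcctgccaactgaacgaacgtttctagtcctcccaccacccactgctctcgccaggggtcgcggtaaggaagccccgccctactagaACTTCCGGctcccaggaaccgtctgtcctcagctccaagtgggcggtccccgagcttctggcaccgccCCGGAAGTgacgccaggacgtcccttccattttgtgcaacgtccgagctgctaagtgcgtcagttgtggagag
Srsf11: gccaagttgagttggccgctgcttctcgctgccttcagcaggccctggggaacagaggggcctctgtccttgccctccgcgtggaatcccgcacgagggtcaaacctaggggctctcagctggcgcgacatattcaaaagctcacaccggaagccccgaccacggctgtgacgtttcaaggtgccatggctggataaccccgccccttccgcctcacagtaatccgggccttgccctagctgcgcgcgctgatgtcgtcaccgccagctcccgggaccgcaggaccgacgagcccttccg
The Hnrnpa3 window holds the E-box and the Hnrnpm window both the E-box and the TATA motif. The TATA match of Hnrnpm lies near the 5′ end of its window, far before the annotated start. Windows of Hnrnph1, Hnrnpc and Hnrnpu, which were also higher in mutant cells, hold no match. Hnrnpf and Hnrnph2 have the E-box in a window and did not pass as higher in mutant cells. The Srsf5 window holds the ETS-type motif on each strand, and the Srsf11 window shown holds no match, although another annotated start of Srsf11 has the ETS-type motif.

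Counting a gene when any of its windows matched, the E-box was in 5 of 18 hnRNP genes (27.8%: Hnrnpa3, Hnrnpd, Hnrnpf, Hnrnph2 and Hnrnpm), in 0 of 10 SR genes, and in 1163 of 10072 tested genes with a window (11.5%). The ETS-type motif was in 2 of 18 hnRNP genes (Hnrnpd and Hnrnpf), in 3 of 10 SR genes (Srsf4, Srsf5 and Srsf11; 30%) and in 8.91% of the tested genes. The TATA motif was in 2 hnRNP genes (Hnrnpab and Hnrnpm), in 2 SR genes (Srsf2 and Srsf3) and in 8.71% of the tested genes. The 3 motifs share no letters that would make one match imply another. Matches were counted at any position in a window. They describe the letters of the windows and no binding was measured.

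The families differed widely in level between their own members. Per kilobase of the longest coding transcript, Hnrnpa2b1, an A/B-type hnRNP that acts in splicing and RNA transport, was the highest in WT cells at 748 ± 39.4 CPM per kb (SD, n = 3), followed by its relative Hnrnpab at 426 ± 23.0. Srsf2, which promotes exon inclusion, was the highest SR gene at 280 ± 16.9 CPM per kb, Hnrnpk, which binds C-rich RNA, stood at 251 ± 6.47 and Srsf5 at 183 ± 2.09. At the other end were Srsf4 at 12.01 ± 0.59, Hnrnpa3 at 7.18 ± 0.34, Hnrnpa1 at 6.20 ± 1.14, Hnrnpr at 5.11 ± 0.11 and Hnrnph3 at 4.55 ± 0.54 CPM per kb. Hnrnpa3, Hnrnpa1 and Hnrnpr lay within the SD of Hnrnpa1 of their neighbour in this order, so their ranks are not distinct.

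Several of these low values belong to genes that share sequence with transcripts of other genes, searched on both strands. Of the 50-base words in the longest coding transcript of Hnrnpa1, 46.4% also occur in transcripts of other genes. These make 20 pairs of gene and transcript class, 19 of them of a pseudogene class. For Hnrnpa3 28.2% occur elsewhere, in 48 such pairs, 42 of them of a pseudogene class. The share was 67.3% for Hnrnpf, 37.8% for Hnrnpk and 31.5% for Srsf3. It was 65.4% for Srsf4, which overlaps the antisense gene Gm12992, and 35.2% for Srsf2, which overlaps Mettl23 and Mfsd11 on the other strand. Where genes overlap, shared words can lie on the opposite strand of the same locus, and these were not told apart from copies elsewhere. The share was 0% for Srsf11, Srsf6, Srsf9, Hnrnpu, Hnrnpll and Hnrnpa0. How the counting treated strand and multi-mapping reads is not given in the sources used here, so the levels of the former genes are uncertain, while a comparison of one gene between libraries uses the same counting throughout. The level of Hnrnpr per kilobase rests on a longest annotated transcript of 21452 bases, against a median of 2543 over its coding transcripts. Longest and median lengths also lay far apart for Hnrnpa3 (5150 and 1140), Srsf6 (3527 and 515) and Hnrnpk (2970 and 900). They were closer for Srsf2 (1899 and 1326) and Hnrnpa2b1 (1728 and 1638). The order of the genes per kilobase, including the highest and lowest named, thus depends on the transcript used and is given for the longest only.

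Both families were higher in mutant than in WT cells with vehicle. The hnRNP genes summed to 8179, 8311 and 8492 CPM in the WT libraries (8327 ± 157), and to 9180, 9099 and 9057 CPM in the mutant vehicle libraries (9112 ± 62.7; n = 3 each). The SR genes summed to 2364, 2492 and 2488 CPM in WT (2448 ± 72.7) and to 2812, 2650 and 2592 CPM in mutant vehicle libraries (2684 ± 114). The groups did not overlap in either sum. In bulk RNA, fewer cells of a type and less RNA per cell cannot be told apart. Of the hnRNP genes 10 of 20 and of the SR genes 5 of 10 passed the test as higher, where 16.9% of all tested genes did. No member passed as lower by edgeR, by DESeq2 or at an unadjusted p under 0.05, where 14.7% of all tested genes were called lower by edgeR. The median log2 fold change was 0.15 for hnRNP genes (range -0.01 to 0.35) and 0.17 for SR genes (-0.03 to 0.21), against 0.02 for all tested genes. The 3 mutant libraries lay above all 3 WT libraries for 11 hnRNP and 7 SR genes (24.6% of all tested genes) and below them for no member (20.5% of all tested genes).

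**Figure D1:**
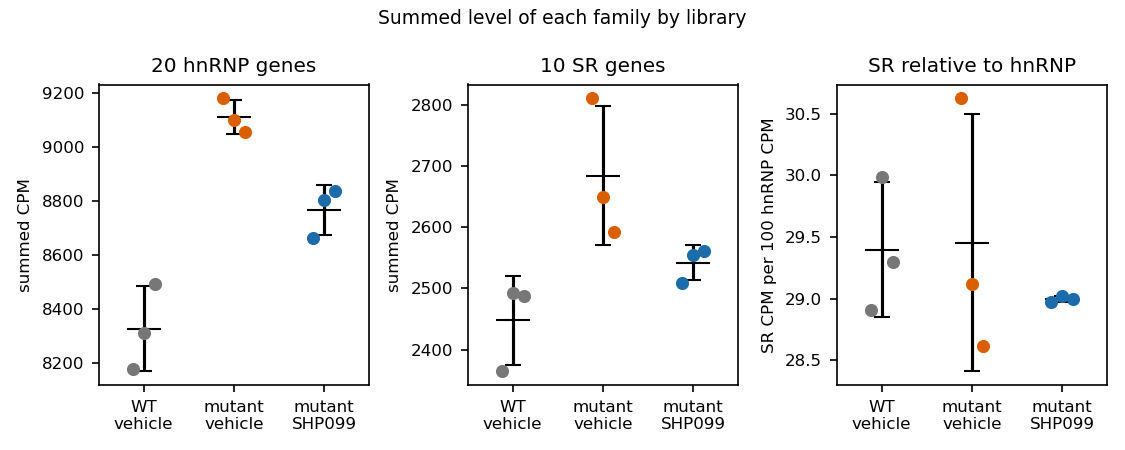
Summed CPM of the 20 hnRNP genes, summed CPM of the 10 SR genes and SR CPM per 100 hnRNP CPM (y axes, not starting at 0), with 1 point per library in each of the 3 groups. The mutant vehicle libraries, at 9057 to 9180 hnRNP CPM, lie above the WT libraries at 8179 to 8492, and the SHP099 libraries lie between them at 8662 to 8835.

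Among hnRNP genes Hnrnph1, which binds G-rich tracts near splice sites, was at 358.9, 365.5 and 390.8 CPM in WT and at 475, 428 and 443 CPM in mutant vehicle libraries. The groups were well apart, and the log2 fold change was 0.27 ± 0.05 (SE, adjusted p = 0.0033). Hnrnpc, which binds uridine tracts of nascent RNA and packages it, was at 410.5, 410.2 and 439.6 CPM in WT and at 487, 499.9 and 486 CPM in mutant libraries, a log2 fold change of 0.22 ± 0.04 (adjusted p = 0.0044). Hnrnpa3, an A/B-type hnRNP, was at 38.8, 35.2 and 36.9 CPM in WT and at 50.2, 44.1 and 45.1 CPM in mutant libraries (0.33 ± 0.06, adjusted p = 0.0046). These 3 genes passed in 18 of 18 alternative analyses. Hnrnpu, a scaffold protein that binds RNA and chromatin, was at 1112, 1135 and 1144 CPM in WT and at 1348, 1279 and 1283 CPM in mutant libraries (0.21 ± 0.04, adjusted p = 0.0057). It too showed no overlap, but its log2 fold change was 0.05 (adjusted p = 0.36) after the trend of fold change with transcript length and GC content was removed.

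Hnrnpr, a relative of Syncrip, was at 109.5, 107.4 and 111.9 CPM in WT and at 128, 119 and 118 CPM in mutant vehicle libraries (0.15 ± 0.04, adjusted p = 0.017). The other hnRNP genes that rose were Hnrnpdl, Hnrnpk, Hnrnpm, Hnrnpd, which binds AU-rich elements in labile mRNAs, and Hnrnpa2b1, by 0.14 to 0.20 on the log2 scale with adjusted p-values of 0.011 to 0.035. Hnrnpa2b1, the most abundant member, was at 1282, 1231 and 1366 CPM in WT and at 1469, 1429 and 1428 CPM in mutant vehicle libraries. Its groups did not overlap, but its call is the least firm of the 10, since it passed in 3 of 18 alternatives. Hnrnpa1, which represses many exons, had the largest hnRNP fold change, 0.35 ± 0.12, and did not pass (adjusted p = 0.054): WT libraries were at 10.2, 11.1 and 14.4 CPM and mutant libraries at 16.2, 15.2 and 14.3, so the groups overlapped. Hnrnpab, the third most abundant hnRNP gene, was at 949.9, 1056 and 1026 CPM in WT and at 1024, 1098 and 1068 CPM in mutant libraries (0.07 ± 0.05, adjusted p = 0.32). Hnrnph3, Hnrnph2, Hnrnpll, Hnrnpul1, Hnrnpl, Hnrnpul2, Hnrnpa0 and Hnrnpf had log2 fold changes of -0.01 to 0.11 and adjusted p-values of 0.24 to 0.98.

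Among SR genes Srsf6, an exon-binding regulator, was at 315, 313 and 337 CPM in WT and at 369, 364 and 356 CPM in mutant vehicle libraries, without overlap (0.17 ± 0.04, adjusted p = 0.012). Srsf10, which acts as a splicing repressor when dephosphorylated, was at 83.6, 93.4 and 89.6 CPM in WT and at 110.9, 99.1 and 99.1 CPM in mutant libraries (0.21 ± 0.06, adjusted p = 0.018). Srsf11, an atypical SR protein, was at 164, 160.5 and 170 CPM in WT and at 200.5, 182 and 178 CPM in mutant libraries (0.18 ± 0.05, adjusted p = 0.020). Mutant replicate 1 was the highest of its group for all of these genes. Srsf1, the prototype of the family, was at 450.9, 484 and 486 CPM in WT and at 570.5, 534 and 511 CPM in mutant libraries (0.19 ± 0.05, adjusted p = 0.022), and Srsf7 rose by 0.16 ± 0.05 (adjusted p = 0.025). Srsf3, with 0.17 ± 0.06 (adjusted p = 0.055), and Srsf5, with 0.12 ± 0.04 (adjusted p = 0.058), did not pass. Srsf2 was at 506, 568 and 523 CPM in WT and at 561, 538 and 539 CPM in mutant libraries, which overlap (0.04 ± 0.05, adjusted p = 0.61), and Srsf4 and Srsf9 had log2 fold changes of 0.02 and -0.03 (adjusted p = 0.83 and 0.74).

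**Figure D2:**
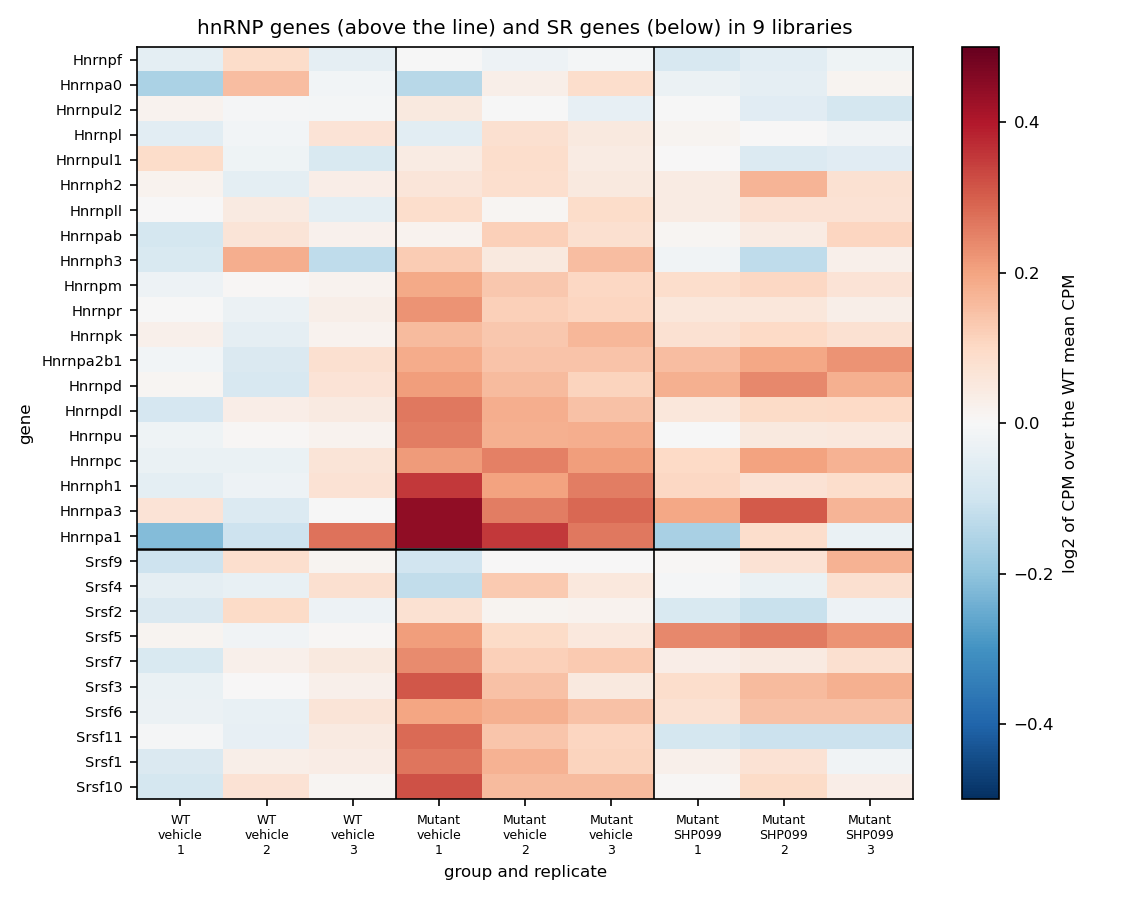
Each row is a gene and each column a library; colour gives the log2 of its CPM over the mean CPM of the 3 WT libraries, red for higher and blue for lower, with hnRNP genes above and SR genes below the horizontal line. The mutant vehicle columns are mostly red in the lower hnRNP rows and in the SR rows other than Srsf2, Srsf4 and Srsf9, and the Srsf11 row is blue in the SHP099 columns.

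How many members passed in this comparison depended on the analysis. With the trend of fold change with transcript length and GC content removed, 5 of 20 hnRNP genes (Hnrnph1, Hnrnpa3, Hnrnpc, Hnrnpdl and Hnrnpm) and 0 of 10 SR genes were higher by edgeR, against 14.4% of all tested genes, and 15.3% of all tested genes were lower. At an unadjusted p under 0.05 this fit had 8 hnRNP and 2 SR genes higher, and the log2 fold change was positive for 10 of 10 SR genes, with a median of 0.08, against 9 before; Srsf9 turned from -0.03 to 0.03. With the replicate number also in that fit, 3 of 20 hnRNP genes (15%) and 0 of 10 SR genes were higher. Of all tested genes 14.1% were. With the trend left in and WT replicate 2 left out, the adjusted test called 5 hnRNP and 1 SR genes. Without WT replicates 1 and 3 in turn it called 2 and 3 SR genes, and without mutant vehicle replicate 1 it called 3 SR genes. Without SHP099 replicate 3 it called 6 hnRNP and 2 SR genes. The share of all tested genes was not taken without single libraries, so these counts do not show whether the families or all genes lost calls.

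Cell type markers moved in the same comparison. Summed levels of the 8 mature neutrophil markers in the table were 23000 to 28946 CPM in WT and 16967 to 17930 CPM in mutant vehicle libraries, where 5 of them were called lower and 1 higher. Megakaryocyte markers summed to 2384 to 3009 CPM in WT and 1062 to 1431 in mutant vehicle libraries (5 of 5 lower), mast cell and basophil markers to 1649 to 1811 and 827 to 1201 CPM (4 of 6 lower), and erythroid markers to 133 to 192 and 55.4 to 82.2 CPM (4 of 4 tested lower). With SHP099 the neutrophil markers were at 24554 to 29195 CPM (3 called higher), the megakaryocyte markers at 1345 to 1777 (2 higher), the mast cell and basophil markers at 1300.2 to 1699 (4 higher) and the erythroid markers at 75.8 to 96.4. Their part in the results on splicing genes was not tested.

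Few members of either family passed the test as lower with SHP099, and by small amounts. The log2 fold change was above 0 for 3 of 20 hnRNP and 2 of 10 SR genes, and for 6737 of 13270 tested genes, so most members lay below 0. Of the hnRNP genes 3 of 20 passed as lower (Hnrnpu, Hnrnph1 and Hnrnpa1) and of the SR genes 1 of 10 (Srsf11), where 13% of all tested genes were lower, so the counts are near the background. No member passed as higher by edgeR, where 8.81% of all tested genes did; at an unadjusted p under 0.05 this was 0 hnRNP and 1 SR gene, and DESeq2 called 0 hnRNP genes and 1 SR gene (Srsf5) higher. The median log2 fold change was -0.06 for hnRNP genes (range -0.39 to 0.04) and -0.08 for SR genes (-0.28 to 0.12), against 0.00 for all tested genes. The hnRNP sum was 8662, 8802 and 8835 CPM with SHP099 (8766 ± 92.1), below all 3 mutant vehicle libraries and above all 3 WT libraries. The SR sum was 2509, 2555 and 2562 CPM (2542 ± 28.4), also below the mutant vehicle and above the WT libraries.

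Srsf11 was the member with the smallest p. It was at 200.5, 182 and 178 CPM with vehicle and at 155, 153 and 153 CPM with SHP099, so that the SHP099 libraries lay below the vehicle libraries and also below the WT libraries at 160.5 to 170 CPM. The log2 fold change was -0.28 ± 0.05 (adjusted p = 0.0037), with -0.37, -0.25 and -0.22 in the numbered pairs of cultures, and it passed in 19 of 19 alternative analyses with adjusted p-values of 1.6e-05 to 0.019. None of the 50-base words of its longest coding transcript occurs in a transcript of another gene. Srsf1, at 482.5, 498 and 468 CPM with SHP099, also lay below its vehicle libraries, with -0.16 ± 0.05 (adjusted p = 0.055). It passed when the mutant cultures were paired by number (adjusted p = 0.037), but not with a block over all 9 libraries (adjusted p = 0.074) or with the pairs and the length and GC trend removed (-0.05, adjusted p = 0.47). Srsf10 was at 89.3, 94.9 and 91.0 CPM with SHP099 (-0.17 ± 0.06, adjusted p = 0.060), again below all vehicle libraries without passing.

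Srsf5 lay the other way. It was at 332, 307 and 298 CPM with vehicle and at 339.6, 344 and 335 CPM with SHP099, which did not overlap, and its log2 fold change was 0.12 ± 0.04 (adjusted p = 0.075). Without mutant vehicle replicate 1 it passed, at 0.17, and with the length and GC trend removed it was at 0.04 (adjusted p = 0.59). Srsf9 was the other SR gene whose SHP099 libraries all lay above the vehicle libraries (0.11 ± 0.06, adjusted p = 0.19). Srsf2, with 505, 492.5 and 523 CPM with SHP099, lay below its vehicle libraries (-0.11 ± 0.05, adjusted p = 0.15), as did Srsf7 (-0.11 ± 0.05, adjusted p = 0.12). Srsf6 was at 339, 356 and 356 CPM, overlapping its vehicle libraries (-0.05 ± 0.04, adjusted p = 0.42), and Srsf3 and Srsf4 had log2 fold changes of -0.03 and -0.01.

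Of the hnRNP genes Hnrnpu was at 1348, 1279 and 1283 CPM with vehicle and at 1130, 1168 and 1171 CPM with SHP099, close to the WT libraries at 1112 to 1144 CPM. Its log2 fold change was -0.17 ± 0.04 (adjusted p = 0.017). Hnrnph1 was at 475, 428 and 443 CPM with vehicle and at 399, 390.9 and 395 CPM with SHP099 (-0.18 ± 0.05, adjusted p = 0.025), and the groups did not overlap. Hnrnpa1 was at 16.2, 15.2 and 14.3 CPM with vehicle and at 10.6, 12.6 and 11.6 CPM with SHP099 (-0.39 ± 0.12, adjusted p = 0.048), the largest fold change of any member. Of 19 alternative analyses Hnrnpu passed in 12, Hnrnph1 in 13 and Hnrnpa1 in 8. Hnrnpr, at 113.9, 113.9 and 112 CPM with SHP099, did not pass (-0.10 ± 0.04, adjusted p = 0.088).

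The remaining hnRNP genes had log2 fold changes of -0.15 to 0.04 and adjusted p-values of 0.11 to 0.99. Among them Hnrnpa2b1 was at 1439, 1479 and 1509.7 CPM with SHP099 (0.03 ± 0.05), Hnrnpab at 1018, 1041 and 1089 CPM (-0.02 ± 0.05), Hnrnpc at 449.9, 482 and 474 CPM (-0.07 ± 0.04) and Hnrnpa3 at 42.2, 45.7 and 41.5 CPM (-0.11 ± 0.06). Of these 4, Hnrnpc alone had all its SHP099 libraries below the vehicle libraries.

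**Figure D3:**
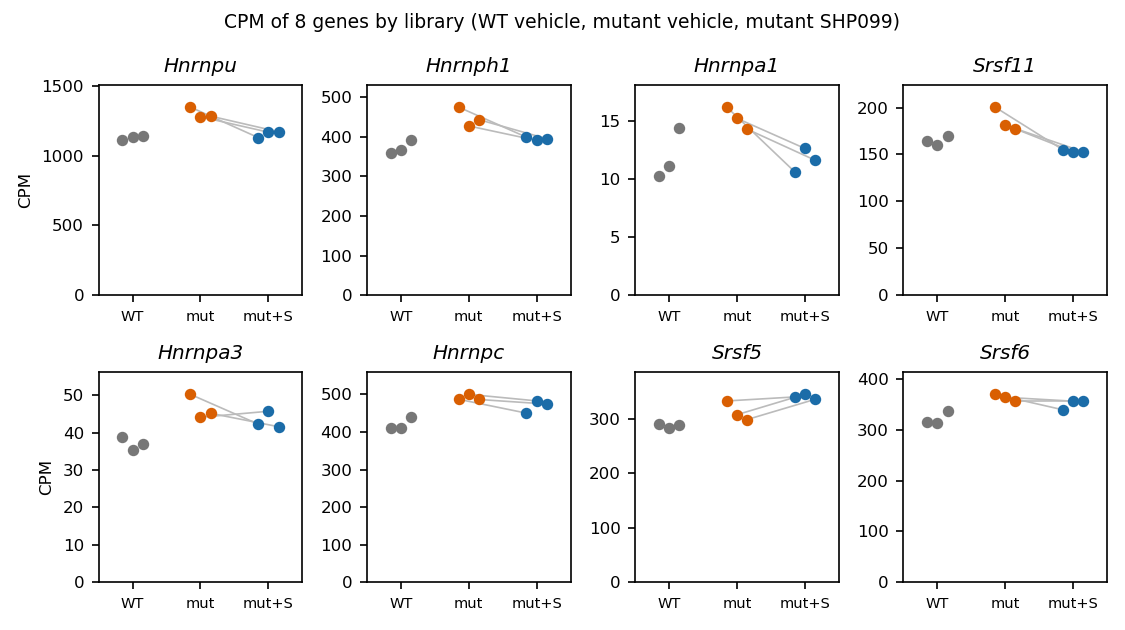
CPM (y axis from 0) of 8 genes in each library of WT vehicle (WT), mutant vehicle (mut) and mutant SHP099 (mut+S) cells; grey lines join mutant cultures with the same number. Srsf11 with SHP099 lies at 153 to 155 CPM, under its vehicle libraries and its WT libraries, while Srsf5 lies at 335 to 344 CPM, above both.

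The SHP099 libraries lay below all mutant vehicle libraries for 9 of 20 hnRNP and 5 of 10 SR genes (22.4% of all tested genes), and above them for 0 hnRNP and 2 SR genes (18.3%). Of the hnRNP genes 12, and of the SR genes 5, were lower in all 3 numbered pairs (31.4% of all tested genes). With the mutant cultures paired in the test, 3 hnRNP genes and 2 SR genes passed as lower (14.6% of all tested genes; 12.5% were higher). Without any 1 of the SHP099 libraries, or without mutant vehicle replicate 3, 0 hnRNP genes passed as lower. Without WT replicate 2 or mutant vehicle replicate 1 it was 1, and the SR count was 3 without WT replicate 1. The share of all tested genes was not taken in these fits either.

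Transcript length and GC content changed which hnRNP genes passed. With their trend removed, 2 hnRNP genes were higher with SHP099, Hnrnpr by 0.30 (adjusted p = 0.0015) and Hnrnpd by 0.20 (adjusted p = 0.014), and 7.56% of all tested genes were higher. The lower ones were Hnrnph1 (-0.22, adjusted p = 0.016), Hnrnpa1 (-0.45, adjusted p = 0.033), Srsf11 (-0.29, adjusted p = 0.0053) and Srsf2 (-0.18, adjusted p = 0.044), where 9.04% of all tested genes were. Hnrnpu, with transcripts of 7640 bases, no longer passed, at 0.02 (adjusted p = 0.74). When the coding transcript of median length was used in place of the longest, 0 hnRNP genes passed as higher. The longest transcript of Hnrnpr has 21452 bases and its median one 2543, and those of Hnrnpd have 6811 and 1537.

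**Figure D4:**
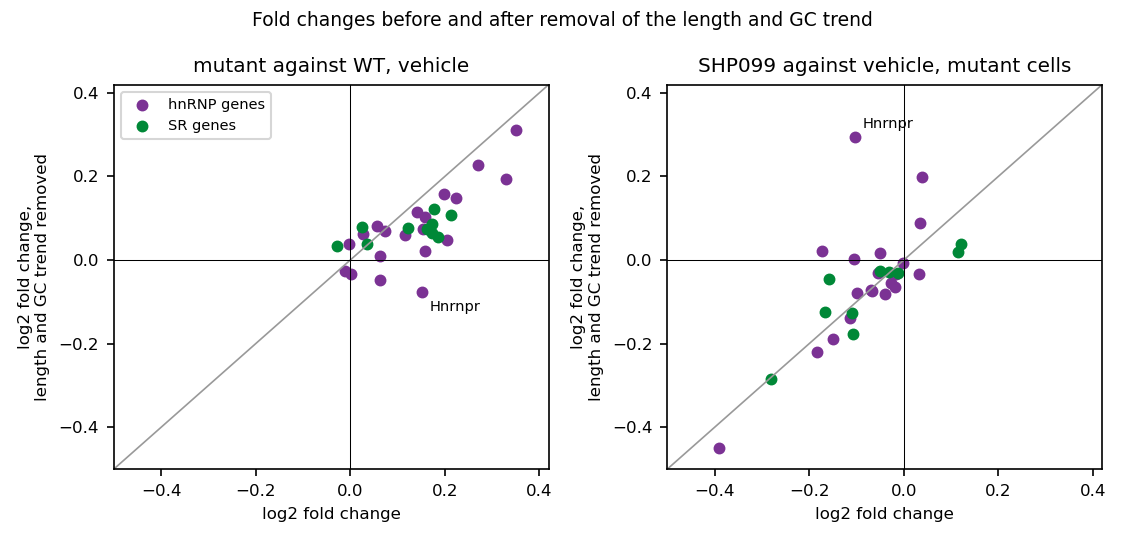
Log2 fold change of each hnRNP and SR gene in the SHP099 and genotype comparisons before (x axis) and after (y axis) removal of the trend with transcript length and GC content. Hnrnpr moves from -0.10 to 0.30 and Hnrnpu from -0.17 to 0.02 in the SHP099 comparison, while Srsf11 stays at -0.28 and -0.29.

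Hnrnpu, Hnrnph1 and Srsf11 were called in both comparisons, higher in mutant cells and lower with SHP099. Their log2 fold changes were 0.21 and -0.17, 0.27 and -0.18, and 0.18 and -0.28. Both comparisons use the same mutant vehicle libraries, so a high value there gives both signs. The comparison of SHP099-treated mutant with WT cells leaves those libraries out of the contrast, and there Hnrnpu was at 0.03 ± 0.04 (adjusted p = 0.58), Hnrnph1 at 0.09 ± 0.05 (adjusted p = 0.20) and Srsf11 at -0.10 ± 0.05 (adjusted p = 0.13).

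In SHP099-treated mutant cells 4 of 20 hnRNP genes and 2 of 10 SR genes were higher than in WT cells, near the 15.4% of all tested genes that were higher (16.3% were lower). Srsf5 differed most in p, with 289.7, 284 and 289 CPM in WT and 339.6, 344 and 335 CPM in treated mutant libraries (0.24 ± 0.04, adjusted p = 0.0035). Hnrnpd (0.20 ± 0.05, adjusted p = 0.011), Hnrnpa2b1 (0.19 ± 0.05, adjusted p = 0.017), Hnrnpc (0.16 ± 0.04, adjusted p = 0.021), Hnrnpa3 (0.22 ± 0.06, adjusted p = 0.025) and Srsf6 (0.12 ± 0.04, adjusted p = 0.047) also passed. No member was called lower by edgeR or DESeq2, and none was lower at an unadjusted p under 0.05. With the length and GC trend removed, however, Srsf11 was called lower than in WT cells (-0.16 ± 0.05, adjusted p = 0.033), and without mutant vehicle replicate 1 the count was 1 SR gene. The hnRNP count was 1 without WT replicate 2 or SHP099 replicate 3 and 2 without SHP099 replicate 2. The SR count was 1 without each of WT replicates 1 and 2, mutant vehicle replicates 2 and 3 and SHP099 replicates 2 and 3. It was 0 with the length and GC trend removed, where 12.3% of all tested genes were higher. Without single libraries the share of all tested genes was not taken.

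**Figure D5:**
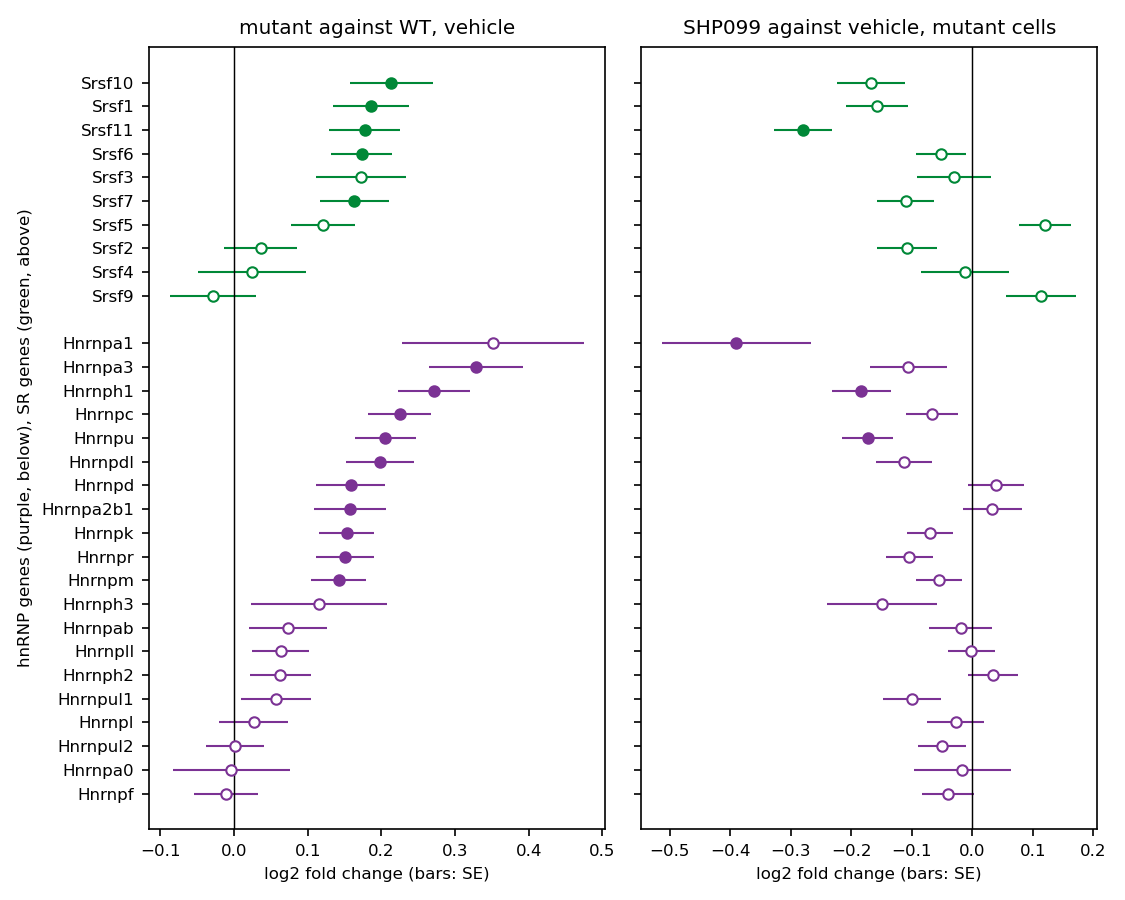
Log2 fold change with its standard error for each gene in the comparisons of SHP099 with vehicle and of mutant with WT cells; filled points have an adjusted p under 0.05, and the x axes of the panels differ. Points of the genotype comparison lie mostly right of 0, with medians of 0.15 and 0.17, and those of the SHP099 comparison near or left of it, with medians of -0.06 and -0.08.

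The medians of the families lay close together in each comparison beside the ranges of their members, and the difference between families was not tested. For each 100 hnRNP CPM there were 28.9, 30.0 and 29.3 SR CPM in WT, 30.6, 29.1 and 28.6 in mutant vehicle and 29.0, 29.0 and 29.0 in SHP099 libraries, so the groups overlapped. Annotated transcript classes were counted too, without a test between the families. Annotated transcripts numbered from 1 (Hnrnpa0) to 34 (Hnrnpk) per member. Transcripts labelled as targets of nonsense-mediated decay exist for 9 of 10 SR genes (90%) and 10 of 20 hnRNP genes (50%), against 3516 of 12195 coding genes tested (28.8%), and retained-intron transcripts for 80% and 70%, against 59.1%. Counts per gene add such transcripts to the productive ones, so they do not show how much protein-coding RNA a gene gives.

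Other genes of the splicing machinery were followed through 9 lists, of which 103 genes were tested. With SHP099 50 of the 103 were lower and 2 higher (Sf3b6, a subunit of SF3B, by 0.17 ± 0.04, and the cold-inducible RNA-binding protein gene Cirbp, by 0.23 ± 0.06), with a median of -0.14, where 13% of all tested genes were lower and 8.81% higher. With the length and GC trend removed 42 were lower and 0 higher (3 at an unadjusted p under 0.05, edgeR), so Sf3b6 and Cirbp lost their calls. In mutant against WT cells 47 were higher and 2 lower (the SR kinase gene Clk3, by -0.18 ± 0.04, and Mbnl2, by -0.20 ± 0.06), with a median of 0.12, where 16.9% of all tested genes were higher and 14.7% lower. With the trend removed 35 were higher and 2 lower. With the cultures paired, 1 Sm and snRNP core gene and 2 genes of the SF1, U2AF, SF3A and SF3B list were higher with SHP099, in place of 0 and 1. With the length and GC trend removed, Sm and snRNP core genes lower with SHP099 were 3 in place of 1, and genes higher in mutant cells were 8 in place of 5 for the SF1, U2AF, SF3A and SF3B list, 3 in place of 5 for hnRNP proteins under other names, and 1 in place of 2 for both the SR kinases and the transportins. These shares were not tested against those of the hnRNP and SR genes.

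Of 14 proteins of the tri-snRNP, spliceosomal helicases and PRP19 complex 10 were lower with SHP099, beside 13% of all tested genes, led by Prpf8, the scaffold of the catalytic centre, at 704 ± 11.0 CPM with vehicle and 473 ± 7.41 with SHP099 (-0.57 ± 0.04, adjusted p = 0.00017), and the helicase Snrnp200 (-0.52 ± 0.04, adjusted p = 0.00023). In mutant cells 7 of the 14 were higher, beside 16.9% of all tested genes, with Prpf31 at 0.26 ± 0.03 and Prpf8 at 0.26 ± 0.04. Of 12 genes of branch-point and 3′ splice-site recognition (SF1, U2AF, SF3A and SF3B) 6 were lower with SHP099, among them Sf3b3 (-0.27 ± 0.04) and Sf3a1 (-0.22 ± 0.04), and 5 were higher in mutant cells, among them Sf3a3 (0.21 ± 0.03) and Sf3b3 (0.19 ± 0.04). Of 12 tested Sm and snRNP core proteins 1 was lower with SHP099, Snrnp70 (-0.20 ± 0.05, adjusted p = 0.026), next to Snrpa, which did not pass (-0.11 ± 0.03, adjusted p = 0.053), and 5 were higher in mutant cells, with Snrpa1 at 0.22 ± 0.05 and Snrpd1 at 0.23 ± 0.05.

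Of 15 SR-related proteins, which share the tail or act with SR proteins, 10 were lower, led by Srrm2, a large nuclear-speckle protein, at 635 ± 57.0 CPM with vehicle and 376 ± 5.27 with SHP099 (-0.75 ± 0.07, adjusted p = 0.00037), and Son, another speckle protein (-0.42 ± 0.04, adjusted p = 0.00039); 11 were higher in mutant cells, with U2surp at 0.30 ± 0.05 and Bclaf1 at 0.26 ± 0.05. With the length and GC trend removed these counts were 9 and 4. Of 9 SR protein kinases 3 were lower with SHP099, among them Srpk1 (-0.32 ± 0.04, adjusted p = 0.0014) and Prpf4b (-0.23 ± 0.05, adjusted p = 0.0088), and in mutant cells 2 were higher, with Srpk1 at 0.19 ± 0.04, and 1 lower, Clk3. All 3 transportins, which carry hnRNP and SR proteins into the nucleus, were lower with SHP099, Tnpo1 by -0.45 ± 0.04 and Tnpo2 by -0.33 ± 0.03 among them, and 2 were higher in mutant cells (Tnpo1 by 0.31 ± 0.04 and Tnpo3 by 0.15 ± 0.04).

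Among hnRNP proteins whose genes have other names 3 of 10 were lower with SHP099, with Ptbp1, which represses exons beside pyrimidine tracts, at -0.23 ± 0.04 and Syncrip at -0.25 ± 0.05, and 5 were higher in mutant cells, with Syncrip at 0.31 ± 0.05 and Rbmx at 0.22 ± 0.05. Of 18 other splicing regulators 9 were lower with SHP099, with Khsrp at -0.23 ± 0.04 and Celf1 at -0.25 ± 0.05, and in mutant cells 7 were higher, with Tardbp at 0.25 ± 0.04 and Matr3 at 0.23 ± 0.04, and 1 lower, Mbnl2. With the length and GC trend removed 4 were lower with SHP099, and 2 were higher in mutant cells. Of 10 nonsense-mediated decay factors 5 were lower with SHP099, with the kinase Smg1 at -0.43 ± 0.03 and the helicase Upf1 at -0.32 ± 0.04, and 3 were higher in mutant cells, with Smg1 at 0.27 ± 0.03 and Smg5 at 0.14 ± 0.04. With the length and GC trend removed, Prpf4b (-0.03), Celf1 (-0.07) and Syncrip (0.01) no longer passed in the SHP099 comparison, as for Sf3b6 and Cirbp above, and Clk3, Bclaf1, Syncrip, Tardbp, Matr3 and Tnpo1 no longer passed in the genotype comparison.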

How the data were processed

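RNA was sequenced from stranded mRNA libraries (TruSeq), per the labels' protocols. FastQC, Subread, featureCounts, STAR and build mm10 appear in the submitters' processing notes, with no versions or roles; the annotation is not given in the sources used here. The file holds raw counts per gene symbol as deposited by the authors, 24421 symbols in 9 columns; the name of 1 column departs from the matching title by its final character, and it was taken as SHP099 replicate 3, the sole sample of that genotype, number and treatment. Members, gene lists and tests were chosen with earlier results of these data known.

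In R 4.3.3, edgeR 4.0.16 (filterByExpr by group, minimum count 10, 13270 genes kept, TMM scaling) fitted group means to all 9 libraries by quasi-likelihood, with 1 shared estimate of the spread. Tests were two-sided, with Benjamini-Hochberg adjustment over all 13270 genes and a threshold of 0.05. SE was derived from the log2 fold change and its F statistic, and CPM are on TMM-scaled library sizes. The p-values reflect spread among the samples at hand, which for WT may be technical. Replicates differed beyond counting noise (chi-square over its degrees of freedom, 10.9 to 114), and none was merged.

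Deviations of same-numbered mutant vehicle and SHP099 libraries from their group means correlated at 0.54, 0.60 and 0.56. Those of different numbers correlated at -0.36 to -0.23. This adds no separate evidence, since deviations from a mean of 3 libraries sum to 0. The titles give the numbers. Same-numbered mutant libraries were therefore taken as pairs, but the reported tests do not use the pairing, which enters as an alternative fit only. WT libraries shared only a number. The paired fit uses a block for the mutant pairs and leaves WT without one, chosen after a block over all 9 libraries had been run. In that alternative, comparisons with WT use the number over all 9 libraries.

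Alternatives were DESeq2 1.42.0, its size factors in edgeR (RLE), a minimum of 1 CPM in 3 libraries or no filter, each library left out, the block, the 2 groups alone, and a lowess trend (span 0.3) on transcript length and GC content removed per library, alone or with the block. A trend on the coding transcript of median length and the block over all 9 libraries were added after the data were seen. Lengths, GC content, transcript classes and overlaps came from GENCODE M21 (GRCm38, also called mm10), which gave a length for 96.5% of the tested genes, and promoters from RefSeq. Scripts were tested on simulated data.

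All kept members are accounted for. Library values are given for the 4 members of each family with the smallest p in the SHP099 and the genotype comparison and the 3 with the highest mean CPM; members called in opposite directions are named; each other list names its 2 genes with the smallest p in each comparison. Genes called against the direction of their lists were named after their values were seen. No proteins are shown.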

Additional observations from a re-analysis of the deposited data

How the results depend on the processing

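Of 220 alternative values of the counts of called members, 171 stayed within 1.5 times the reported count. Many of these 171 are reported counts of 0 that stayed at 0, so the tally does not measure how stable the calls themselves are. With SHP099, 0 hnRNP genes were higher but 2 with the length and GC trend removed, with or without the block, and 0 with the median transcript. Leaving out each library gave 0 to 3 hnRNP genes lower (reported 3), 0 to 1 SR genes higher (reported 0; 1 by DESeq2) and 1 to 3 SR genes lower (reported 1). SR genes lower were 2 by DESeq2, with the replicate block, and with the trend removed, also with the block or with the median transcript. The block over all 9 libraries gave 2 hnRNP and 1 SR genes lower. For mutant against WT, hnRNP genes higher (reported 10) were 5 in the 2 groups alone, 5 with the trend removed, 3 with trend and block, 4 with the median transcript and 5 to 10 without single libraries, and SR genes higher (reported 5) were 1, 0, 0, 2 and 1 to 5. With the block alone these were 9 and 5. Of all tested genes 14.4% were higher with the trend removed, 14.1% with trend and block and 16.4% with the block alone. With trend and block the hnRNP share (15%) is thus near that of all genes. The share of all genes was not taken for the 2 groups alone, the median transcript or the fits without single libraries. For treated mutant against WT, hnRNP genes higher (reported 4) were 1 with the median transcript and 1 to 4 without single libraries. SR genes higher (reported 2) were 1 with RLE, 1 with the 1 CPM filter, 1 with the block, 0 with the trend removed, 0 with trend and block, and 1 to 3 without single libraries, and SR genes lower (reported 0) were 1 with the trend removed, with or without the block, and 0 to 1 without single libraries. Among the 23 gene values followed through the alternatives, signs turned for Hnrnpr with SHP099 (0.2955 with the trend removed, 0.29525 with the block added), Hnrnpu with SHP099 (0.020718, 0.02064 and, with the median transcript, 0.067371) and Hnrnpr in mutant cells (-0.077236 and -0.077034). Of the other members, Hnrnpul2, Hnrnpa3 and Hnrnpa2b1 with SHP099 and Srsf9, Hnrnpa0, Hnrnph2 and Hnrnpul2 in mutant cells turned sign with the trend removed, to values of -0.05 to 0.04. In each case the cause was not tested. Apart from the counts named here, the pairing changed the call of Srsf1 with SHP099 (adjusted p = 0.037). In mutant against WT cells, where libraries are not pairs, the block on the number over all 9 libraries changed that of Hnrnpa2b1 (adjusted p = 0.052).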
